A study of Mus musculus with 6 samples.

Results

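The genes described here are those of prolactin and growth hormone signalling through STAT5 in the mouse mammary epithelium: the receptor genes Prlr and Ghr, the kinase gene Jak2, the transcription factor genes Stat5a, Stat5b and Elf5, the feedback genes Cish and Socs2, and the effector genes Tnfsf11 and Id2. They were chosen by name, with earlier results of these data known, and all 10 were found among the 17739 gene symbols of the deposited table. RNA was sequenced from epithelial organoids, which are fragments of mammary epithelium freed by collagenase and pronase, taken from the second and the third glands of FVB mice on lactation day 1. The groups were a conditional Nmi knockout, labelled Nmi-/- (KO, 3 mice), and wild type (WT, 3 mice), with 1 library per mouse. The sources used here give neither the promoter that drives the recombinase, nor the exons removed, nor the ages of the mice. The study asked how loss of Nmi, an interferon-induced protein that binds STAT factors, leads to excess growth of the gland. In such samples, fewer cells of a type and less RNA per cell cannot be told apart.

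Prolactin binds its receptor on the alveolar cell and activates the receptor-bound kinase JAK2, which phosphorylates STAT5A and STAT5B. Dimers of STAT5 enter the nucleus and bind the sequence TTCNNNGAA, and they switch on milk protein genes together with glucocorticoid receptor and C/EBP beta. CISH and the SOCS proteins, themselves products of STAT5 target genes, damp the signal, while ELF5 acts downstream of the prolactin receptor and is needed for secretory alveoli. These mRNA levels do not report receptor binding or STAT5 phosphorylation.

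Matches to the STAT5 motif are shown first, since they mark which of these genes carry the motif next to their start. Windows of 300 bases, from 250 before to 50 after an annotated start, were taken from RefSeq on GRCm38.p6 for 9 of the 10 genes (15 windows), Socs2 being the one without a window. The motif TTCNNNGAA, which reads the same on both strands, was in 2 of the 15 windows, against 8.3% of 32851 windows of all genes. Of the windows of 6 milk genes, 4 held it. Cish had 2 matches, as 0.457% of all windows did (2 or more), and Prlr had 1 in the second of its 3 windows. Capitals mark the motif, and the windows of Cish (chr9:107296409-107296708, plus strand), Prlr (chr15:10223656-10223955, plus strand) and the beta-casein gene Csn2 (chr5:87699376-87699675, minus strand) read as follows.
Cish: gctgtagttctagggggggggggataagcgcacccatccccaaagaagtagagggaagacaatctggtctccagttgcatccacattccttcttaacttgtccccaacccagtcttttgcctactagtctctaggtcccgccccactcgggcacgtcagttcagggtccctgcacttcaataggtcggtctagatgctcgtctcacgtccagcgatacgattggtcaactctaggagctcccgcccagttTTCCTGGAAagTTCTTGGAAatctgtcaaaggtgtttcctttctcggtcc
Prlr: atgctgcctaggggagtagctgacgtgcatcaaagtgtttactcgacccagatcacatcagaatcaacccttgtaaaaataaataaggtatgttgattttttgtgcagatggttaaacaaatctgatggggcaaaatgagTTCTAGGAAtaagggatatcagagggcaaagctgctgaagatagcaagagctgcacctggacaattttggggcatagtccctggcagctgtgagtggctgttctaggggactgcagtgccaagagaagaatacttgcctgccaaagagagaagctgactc
Csn2: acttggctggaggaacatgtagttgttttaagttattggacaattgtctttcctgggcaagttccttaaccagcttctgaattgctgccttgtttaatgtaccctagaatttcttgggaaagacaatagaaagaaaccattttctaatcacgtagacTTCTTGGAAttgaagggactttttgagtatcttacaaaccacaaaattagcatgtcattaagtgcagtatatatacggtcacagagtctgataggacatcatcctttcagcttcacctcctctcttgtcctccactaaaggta
The matches begin at bases 1 and 12 of Cish counted from the annotated start, and at -110 in the Prlr window and -93 in Csn2. No match in a window says only that these letters are not there.

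Nmi itself had 0.188, 0.547 and 0.564 FPKM in KO replicates 1, 2 and 3, and 4.60, 2.82 and 2.32 FPKM in WT replicates 1, 2 and 3, without overlap. FPKM is a fragment number scaled by the length of the gene and by the total of the library. The table holds no read numbers, so the absolute depth is unknown, and precision comes from the spread between mice. The 8 milk genes (Csn1s1, Csn1s2a, Csn1s2b, Csn2, Csn3, Wap, Lalba and Glycam1) held 63.0%, 60.3% and 72.7% of the FPKM sum in KO replicates 1, 2 and 3, and 44.7%, 57.7% and 66.2% in WT replicates 1, 2 and 3. WT replicate 1, at the low end, and KO replicate 3, at the high end, stood apart in this share. Results that rest on them are also given without 1 or both of them. The luminal list (Krt8, Krt18, Krt19 and Epcam, 4 of 4 tested) summed to 2237, 2983 and 779 FPKM in KO and to 4774, 3119.8 and 2281 FPKM in WT. The sum was highest in WT replicate 1 and lowest in KO replicate 3, the reverse of the milk share, and its part in the results below was not tested. The basal list (6 of 6 tested) summed to 293, 1063 and 306 FPKM in KO and to 777, 632 and 375 FPKM in WT. Of 5 adipocyte genes, Adipoq, Cfd, Plin1 and Lep lay between 0 and 0.167 FPKM and Fabp4, which endothelial cells also express, between 157 and 672 FPKM, and the pan-leukocyte gene Ptprc between 0.0486 and 0.303 FPKM.

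The 10 genes spanned a wide range of levels, and their positions are given on GRCm38 from the GENCODE annotation. Elf5 had the highest level, with a mean of 181.5 ± 34.6 FPKM over the 6 libraries (SD), above 99.0% of the genes tested. It was followed by Id2 (17.9 FPKM), Jak2 (17.7 FPKM), Stat5a (14.9 FPKM), Cish (10.9 FPKM), Stat5b (8.71 FPKM), Ghr (7.52 FPKM), Socs2 (4.74 FPKM) and Prlr (3.57 FPKM). Elf5 exceeded Id2 in 6 of 6 libraries with no overlap of their ranges, and from Id2 to Prlr each gene overlapped the next in the order. Prlr thus stood lowest of the 9 genes tested, at a level above 33.9% of all genes tested. The longest Prlr transcript in the annotation has 9900 bases, and the length the authors divided by is unknown. Tnfsf11 (chr14:78277445-78308043, minus strand), which encodes RANK ligand, a paracrine signal from hormone-sensing cells, was listed at 0 in 5 of 6 libraries and at 0.0352 FPKM in WT replicate 2. Since Gapdh, active in nearly every cell, was also listed at 0 in some libraries, this was not read as absence. The gene for its receptor, Tnfrsf11a, had 9.07, 7.51 and 7.84 FPKM in KO and 8.69, 7.30 and 8.48 FPKM in WT.

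**Figure D1:**
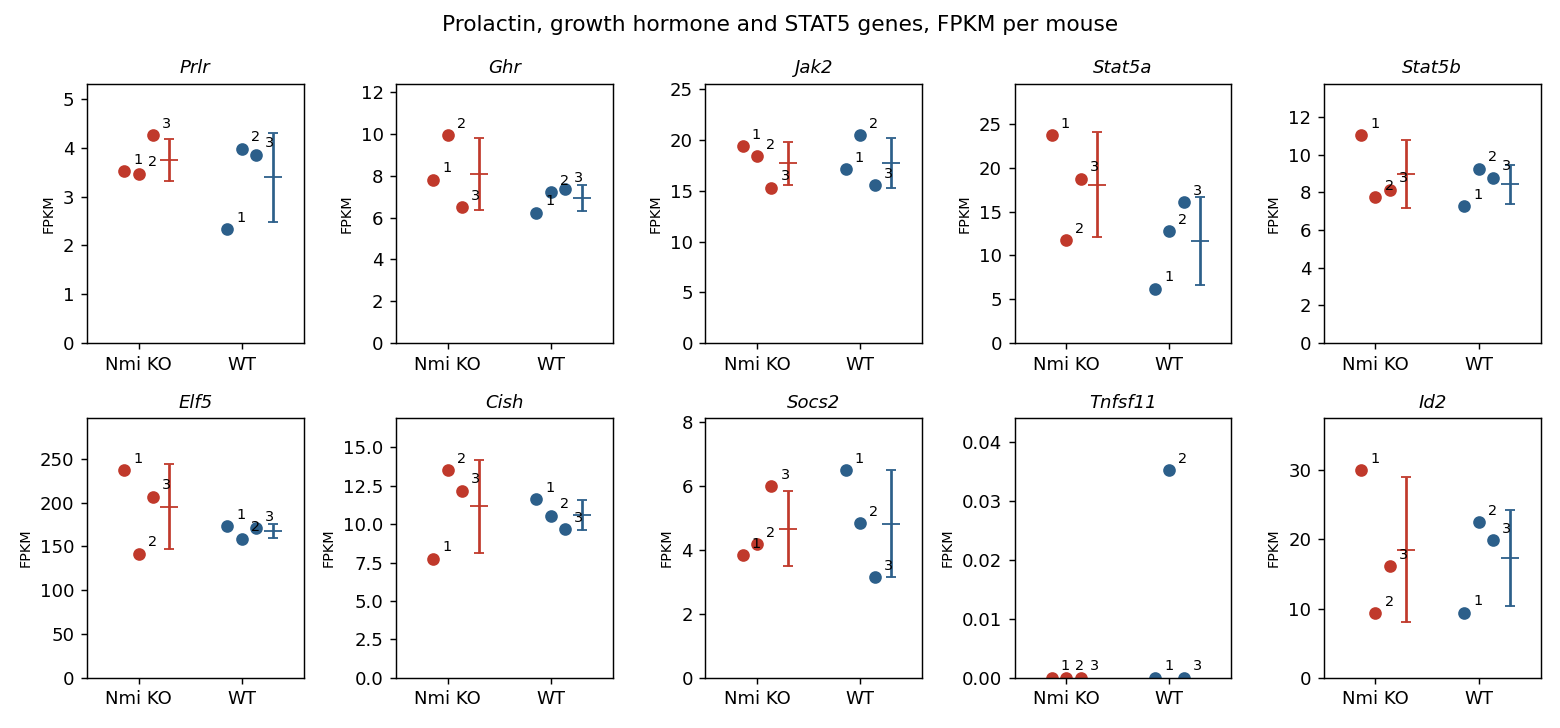
FPKM of the 10 genes in each mouse, with the Nmi knockout (red) left of wild type (blue). Points are mice labelled by replicate number, and bars at the right of each group are the mean ± SD (n = 3 each, not drawn for Tnfsf11); the groups overlap in every panel.

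No gene of the pathway passed the test between KO and WT, and each difference lay within the spread between mice. Of the 9 genes tested (those reaching 1 FPKM in 3 or more libraries), 0 were called at an adjusted p under 0.05 with limma and Benjamini-Hochberg adjustment over 9767 genes, where 0.0% of all genes were called higher and 0.0% lower. At an unadjusted p under 0.05 the number was 0 of 9, against 1.33% of all genes (0.184% higher and 1.15% lower). The groups overlapped for each of the 10 genes, against 4.61% of all genes tested whose groups did not overlap. The log2 fold changes of the 9 genes, KO over WT on the scale of log2(FPKM + 1), had a median of 0.07, and 8 were above 0. This scale understates the change of genes with low FPKM. Over all genes the median was -0.21 and 18.3% were above 0. That median moved to 0.01 with trimmed-mean scaling and to -0.06 when libraries were scaled to the FPKM sum outside the milk genes. All 9 genes lay above that median in each of these scalings. Without WT replicate 1 and KO replicate 3 together, 5 of 9 did, the exceptions being Prlr, Cish, Socs2 and Id2, and with the milk share as a covariate 6 of 9 did, the exceptions being Prlr, Stat5b and Id2. With 1 library left out, 8 or 9 of 9 did. A single gene in 3 against 3 mice cannot reach an exact permutation p under 0.1.

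Among the receptors, Prlr (chr15:10177238-10349180, plus strand), the prolactin receptor, had 3.52, 3.47 and 4.25 FPKM in KO and 2.34, 3.98 and 3.86 FPKM in WT. The low value was WT replicate 1 alone, and the other 5 mice lay close together. The log2 fold change was 0.13 (95% confidence interval -0.38 to 0.64, limma adjusted p = 0.817), or 0.34 relative to the median of all genes, and it was -0.055 without WT replicate 1. An annotated gene model, Gm21973, overlaps Prlr exons on the same strand, so its fragments may be shared between them. Ghr (chr15:3317760-3583492, minus strand), the growth hormone receptor, which also signals through JAK2 and STAT5, had 7.82, 9.94 and 6.51 FPKM in KO and 6.24, 7.23 and 7.38 FPKM in WT. Here KO replicate 2 was highest and the groups overlapped (log2 fold change 0.18, 95% confidence interval -0.34 to 0.70, limma adjusted p = 0.779). Adipocytes also express Ghr. Of 5 adipocyte markers, Fabp4 had 264, 440.4 and 157 FPKM in KO and 672, 498 and 212 FPKM in WT, the other 4 stayed under 1 FPKM, and their part in the Ghr values was not tested.

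The kinase and both STAT5 genes came next in the pathway. Jak2 (chr19:29251828-29313080, plus strand) was the steadiest of the 9, with 19.4, 18.4 and 15.3 FPKM in KO and 17.1, 20.5 and 15.6 FPKM in WT, a 1.33-fold range over the 6 mice. Its log2 fold change was 0.00 (95% confidence interval -0.54 to 0.54, limma adjusted p = 0.999). Stat5a (chr11:100859351-100885169, plus strand), the isoform gene that mouse mammary development depends on most, had 23.7, 11.7 and 18.8 FPKM in KO and 6.20, 12.7 and 16.0 FPKM in WT. KO replicates 1 and 3 exceeded each WT mouse, while KO replicate 2 lay under WT replicates 2 and 3. The means were 18.1 ± 6.01 FPKM in KO and 11.7 ± 5.01 FPKM in WT (SD, n = 3 each). This was the largest fold change of the 9 genes, 0.63 (SE 0.36, 95% confidence interval -0.16 to 1.42, limma adjusted p = 0.768), and it was not called. It was 0.27 without WT replicate 1, 0.41 without KO replicate 1 and 0.21 without WT replicate 1 and KO replicate 3 together. Without KO replicate 2 or WT replicate 3 it was 0.89, with limma adjusted p of 0.403 and 0.508, and with the milk share as a covariate it was 0.16. An exon of Stat5a overlaps Stat3 on the opposite strand, and the strand setting of the counting is unknown.

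Stat5b (chr11:100780731-100850724, minus strand), the paralog that carries much of growth hormone signalling in other tissues, had 11.0, 7.74 and 8.15 FPKM in KO and 7.28, 9.26 and 8.79 FPKM in WT. KO replicate 1 alone stood above the others (log2 fold change 0.07, 95% confidence interval -0.46 to 0.60, limma adjusted p = 0.902). The transcripts of both paralogs match at 90.9% identity over 2332 bases, under the 95% used to mark near-identical copies. The ratio of Stat5a to Stat5b, which library scaling cannot alter, was 2.15, 1.52 and 2.30 in KO and 0.852, 1.38 and 1.82 in WT. Stat5a was thus the higher of the pair in 5 of 6 mice, WT replicate 1 being the exception. The mean log2 ratio was 0.97 ± 0.32 in KO and 0.37 ± 0.56 in WT (SD, n = 3 each), a difference of 0.60 (two-sided exact permutation p = 0.2). The difference was 0.31 without WT replicate 1.

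Elf5 (chr2:103411688-103450989, plus strand), an ETS factor of alveolar cells, had 237, 142 and 207 FPKM in KO and 173, 159 and 171 FPKM in WT. The WT mice were close together, and KO mice lay on both sides of them, KO replicate 2 below and KO replicates 1 and 3 above. The log2 fold change was 0.19 (95% confidence interval -0.48 to 0.85, limma adjusted p = 0.807), and 0.03 without KO replicate 1 and 0.40 without KO replicate 2. The SD of Elf5 was 48.7 FPKM in KO and 7.77 FPKM in WT.

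The feedback genes come last in the signal. Cish (chr9:107296026-107302784, plus strand), a STAT5 target and inhibitor, had 7.76, 13.5 and 12.2 FPKM in KO and 11.6, 10.6 and 9.67 FPKM in WT. KO replicate 1, the mouse with the highest Stat5a, Stat5b and Elf5, had the lowest Cish (log2 fold change 0.04, 95% confidence interval -0.54 to 0.61, limma adjusted p = 0.954). The annotated antisense gene Gm17041 overlaps Cish on the opposite strand. Socs2 (chr10:95385362-95417180, minus strand), the main brake on growth hormone signalling, had 3.82, 4.17 and 5.98 FPKM in KO and 6.48, 4.82 and 3.14 FPKM in WT. Its mice were interleaved, with a log2 fold change of -0.02 (95% confidence interval -0.61 to 0.58, limma adjusted p = 0.977) that turned to 0.14 under scaling outside the milk genes and to 0.22 under trimmed-mean scaling. A pseudogene, Gm9847, matches 27.0% of the longest Socs2 transcript at 99.5% identity, so part of its fragments may be placed there. Cish stood above Socs2 in each library, at 2.03 to 3.24 times in KO and 1.79 to 3.08 times in WT.

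Id2 (chr12:25093799-25097140, minus strand), an inhibitor of basic helix-loop-helix factors that lactation requires in mice, had 30.0, 9.36 and 16.2 FPKM in KO and 9.40, 22.6 and 19.9 FPKM in WT. The highest and the lowest of the 6 values were both KO mice, a 3.21-fold range. The log2 fold change was 0.04 (95% confidence interval -0.89 to 0.96, limma adjusted p = 0.969), -0.37 without KO replicate 1, -0.33 without WT replicate 1 and 0.42 without KO replicate 2. The other family members were low, with Id1 at 0.639 to 0.837 FPKM in KO and 0.403 to 1.52 FPKM in WT, and Id3 and Id4 between 1.36 and 2.31 FPKM in KO and between 0.718 and 3.58 FPKM in WT.

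**Figure D2:**
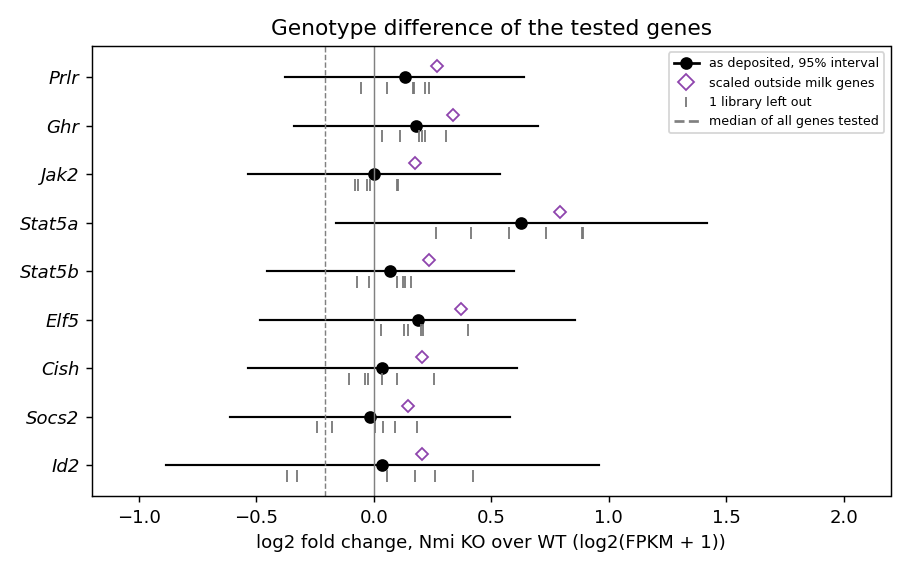
Log2 fold change of the 9 genes tested, KO over WT. Circles with bars are values as deposited with 95% confidence intervals, diamonds are values scaled outside the milk genes, ticks are values with 1 library left out, and the dashed line is the median of all genes tested (-0.21). Each interval crosses 0, and the estimate of Stat5a, at 0.63, lies farthest from it.

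Other genes of the pathway, from 2 lists, gave no call either. Of 20 upstream kinases, inhibitors and phosphatases, 16 were tested, and 0 were called higher and 0 lower with limma and Benjamini-Hochberg adjustment (0 at an unadjusted p under 0.05). Of these, 9 lay above the median of all genes, and their median log2 fold change was -0.17. The 4 with the smallest unadjusted p were Pias1, Socs6, Ptpn11 and Socs3. Pias1 had 4.02, 4.04 and 2.94 FPKM in KO and 6.67, 4.70 and 4.71 FPKM in WT, without overlap (log2 fold change -0.44, 95% confidence interval -0.95 to 0.07, limma adjusted p = 0.768). Socs3, a brake on STAT3 signalling, had 15.3, 31.2 and 39.4 FPKM in KO and 18.8, 22.3 and 15.0 FPKM in WT (log2 fold change 0.51, limma adjusted p = 0.768). The antigen presentation gene Cd74 was high in the same KO mice, with 15.6, 36.9 and 58.1 FPKM in KO and 17.9, 23.6 and 19.2 FPKM in WT, while the other 5 immune markers stayed under 1 FPKM, and their part in the Socs3 values was not tested. Socs6 (-0.62) and Ptpn11 (-0.47), which encodes the phosphatase SHP2, had the same adjusted p of 0.768 with limma. Ptpn2, outside these 4, also had groups without overlap, but with KO higher. Its log2 fold change was 0.11 (95% confidence interval -0.35 to 0.56, limma adjusted p = 0.832). Of all genes tested, 4.61% had groups without overlap in either direction. Of 22 co-factors and effectors, 19 were tested and 0 were called in either direction. In this list 13 lay above the median of all genes, the median log2 fold change was -0.02, and Nmi alone had an unadjusted p under 0.05 (3.81e-05, limma adjusted p = 0.372). Cebpb, which encodes C/EBP beta, had 97.1, 86.3 and 93.6 FPKM in KO and 104, 154 and 120.2 FPKM in WT, without overlap. Its log2 fold change was -0.43 (95% confidence interval -1.05 to 0.19, limma adjusted p = 0.768), or -0.22 relative to the median of all genes. The ETS factor gene Ehf had a log2 fold change of -0.77 and the cyclin gene Ccnd1 one of 0.38 (limma adjusted p = 0.768 for both).

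Mouse by mouse, Prlr and Stat5a had the highest r with the milk share of the 9 genes, and neither passed the adjusted threshold. Across the 6 mice, 81 relations were computed, 9 genes against the milk share and each of the 8 milk genes, and p-values came from the exact permutation of all 720 pairings with Benjamini-Hochberg adjustment over 9767 genes. The milk share and the FPKM of every other gene have the library total in common, and 13.2% of genes tested had a positive r with the share (median r -0.822). Of the 9 genes, 0 passed the adjusted threshold, against 11.4% of all genes. At an unadjusted p under 0.05, 2 of 9 were positive, against 2.47% of all genes, and 0 of 9 were negative, against 49.7%. Prlr had r = 0.893 (exact permutation p = 0.0278, adjusted p = 0.0687) and rho = 0.657 (exact permutation p = 0.175, adjusted p = 0.250). Stat5a had r = 0.855 (exact permutation p = 0.0458, adjusted p = 0.0899) and rho = 0.771 (exact permutation p = 0.103, adjusted p = 0.172). The adjustment ranks the p of all genes, so the many negative genes with small p lower these adjusted p. They are therefore not to be read as just short of the threshold. Without WT replicate 1 and KO replicate 3, the mice farthest from the median share, r was -0.105 for Prlr and 0.543 for Stat5a over the 4 mice left. The share of those left ran only from 57.7% to 66.2%, and within that range no positive relation of Prlr was seen. A narrower range lowers r by itself, so this cannot decide whether the relation holds. Without KO replicate 3 alone, r was 0.874 for Prlr and 0.878 for Stat5a. Without WT replicate 1 alone, r was 0.576 for Prlr and 0.535 for Stat5a.

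The other 7 genes spread over a wide range. Id2 (r = 0.462), Stat5b (0.359), Elf5 (0.358) and Ghr (0.155) were positive, and Cish (-0.117), Jak2 (-0.382) and Socs2 (-0.382) negative, with exact permutation p between 0.364 and 0.835. For Cish, Jak2 and Socs2 the sign turned with the scaling, to 0.458, 0.668 and 0.110 when libraries were scaled outside the milk genes. The factor divided by in that scaling fell as the milk share rose. It was 1.22 in WT replicate 1 (share 44.7%) and 0.81 in KO replicate 3 (share 72.7%). Dividing by it adds a rise with the share to every gene, so these r are tied to the share as well. What this added to r was not tested. With that scaling 3 of 9 genes were positive at an unadjusted p under 0.05, against 6.8% of all genes, and 0 were negative, against 21.4%. These were Prlr (r = 0.962, exact permutation p = 0.00972, adjusted p = 0.138), Stat5a (r = 0.921, exact permutation p = 0.0167, adjusted p = 0.139) and Stat5b (r = 0.833, exact permutation p = 0.0458, adjusted p = 0.169), with rho of 0.829, 0.771 and 0.771 (exact permutation p = 0.0583, 0.103 and 0.103, adjusted p = 0.210, 0.280 and 0.280). With trimmed-mean scaling Ghr and Jak2 joined them, 5 of 9 against 11.9% of all genes, and 0 of 9 genes were negative against 11.2%. The trimmed-mean factor also fell as the share rose, from 1.32 in WT replicate 1 to 0.729 in KO replicate 3. Over the 4 mice left without WT replicate 1 and KO replicate 3, the values scaled outside the milk genes gave r = 0.449 for Prlr, 0.636 for Stat5a and 0.422 for Stat5b. Without WT replicate 1 alone the scaled values gave 0.869, 0.740 and 0.481, and that of Jak2 was -0.210. Over the same 4 mice, Socs2 had r = -0.994 both as deposited and scaled outside the milk genes, and Jak2 had -0.851 and -0.712. For Socs2 this depended on the mice left out. Without WT replicate 1 alone its r was 0.320 as deposited and 0.584 scaled. No p was computed with libraries left out.

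**Figure D3:**
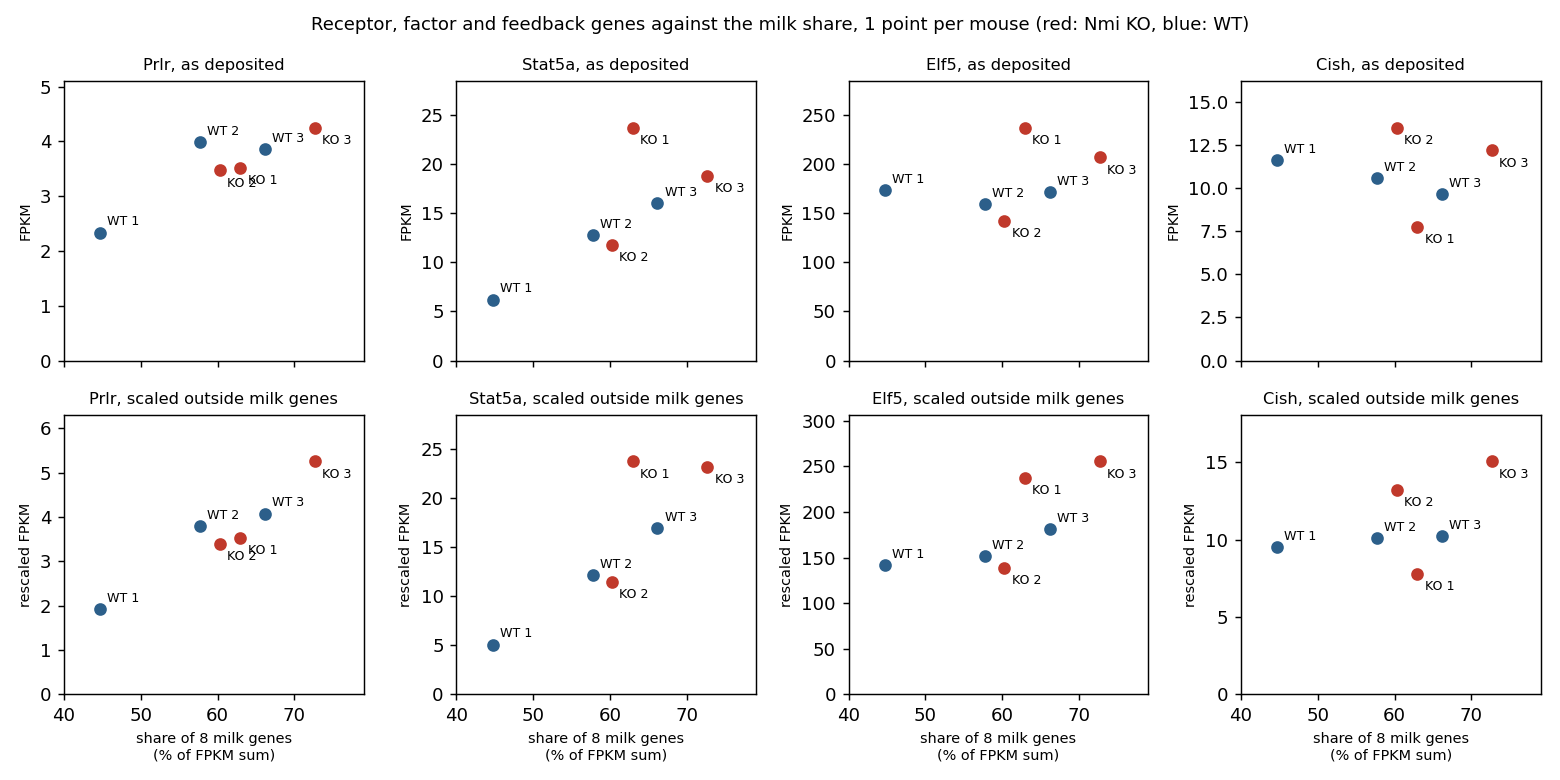
Prlr, Stat5a, Elf5 and Cish in each mouse against the share of the FPKM sum held by the 8 milk genes (percent), as deposited (upper row, FPKM) and scaled outside the milk genes (lower row). WT replicate 1, at 44.7%, has the lowest Prlr and Stat5a, and KO replicate 1 has the highest deposited Stat5a and Elf5 and the lowest Cish.

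**Figure D4:**
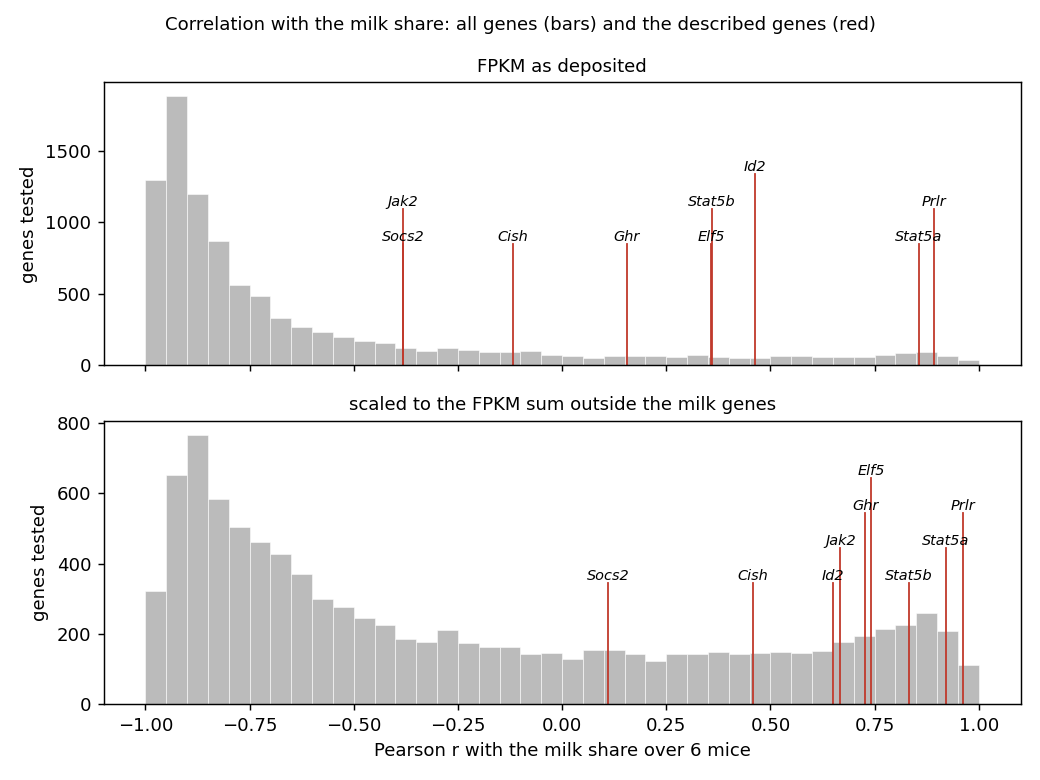
Pearson r with the milk share over 6 mice for all 9767 genes tested (bars, numbers of genes) and for the 9 described genes (red lines), as deposited (upper) and scaled outside the milk genes (lower). Most genes lie near the negative end as deposited, and Prlr (0.893) and Stat5a (0.855) near the positive end.

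The caseins and Wap had high r with each other (r of Csn2 with Csn1s1, Csn1s2a, Csn1s2b, Csn3 and Wap 0.925 to 0.995), whereas Lalba, which encodes the lactose synthase subunit alpha-lactalbumin, had r = 0.555 with Csn2. With single milk genes, r of Prlr ran from 0.380 (Lalba) to 0.887 (Glycam1), and that of Stat5a from 0.621 (Glycam1) to 0.893 (Csn2). Lalba had 3997, 1992 and 2527 FPKM in KO and 1921, 2351 and 2574 FPKM in WT, with KO replicate 1 far above the other 5 mice. Csn2 had 111206, 91280 and 142436 FPKM in KO and 54112, 85706 and 125272 FPKM in WT, with KO replicate 3 highest. With Csn2 as the measure, 0 of 9 genes were called, against 14.2% of all genes. At an unadjusted p under 0.05, Prlr and Stat5a were positive, 2 of 9 against 2.42% of all genes, and 0 of 9 were negative, against 47.6%. The following values against Lalba were computed after the data had been seen, and the difference between r with Lalba and r with the caseins was not tested.

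Stat5b had r = 0.927 with Lalba (exact permutation p = 0.0153) and Id2 had 0.873 (exact permutation p = 0.0139), against 0.442 and 0.541 with Csn2. Stat5a had 0.847 (exact permutation p = 0.0417), and Elf5 had 0.827 (exact permutation p = 0.0514). Cish ran the other way, with r = -0.875 (exact permutation p = 0.0264). The rho was 0.829 for Stat5b, 0.771 for Id2, 0.943 for Stat5a, 0.543 for Elf5 and -0.714 for Cish, with exact permutation p of 0.0583, 0.103, 0.0167, 0.297 and 0.136 and adjusted p from 0.276 to 0.463. Each of these 5 had an adjusted p of 0.704 for r, so 0 of 9 were called, as were 0.0% of all genes. At an unadjusted p under 0.05, 3 of 9 were positive, against 1.02% of all genes, and 1 of 9 was negative, against 4.06%. Without KO replicate 1 and WT replicate 1, the mice farthest from the median of Lalba, r was 0.554 for Stat5b, 0.799 for Id2, 0.834 for Stat5a, 0.808 for Elf5 and -0.737 for Cish over 4 mice. When libraries were scaled outside the milk genes, r was 0.964 for Stat5b, 0.945 for Stat5a, 0.900 for Id2 and 0.899 for Elf5, and that of Cish was -0.169. The adjusted exact permutation p was 0.268 for each of Stat5b, Stat5a, Id2 and Elf5, and 0.847 for Cish. In that scaling Lalba and each gene are divided by the same factor per library, which can raise r by itself.

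**Figure D5:**
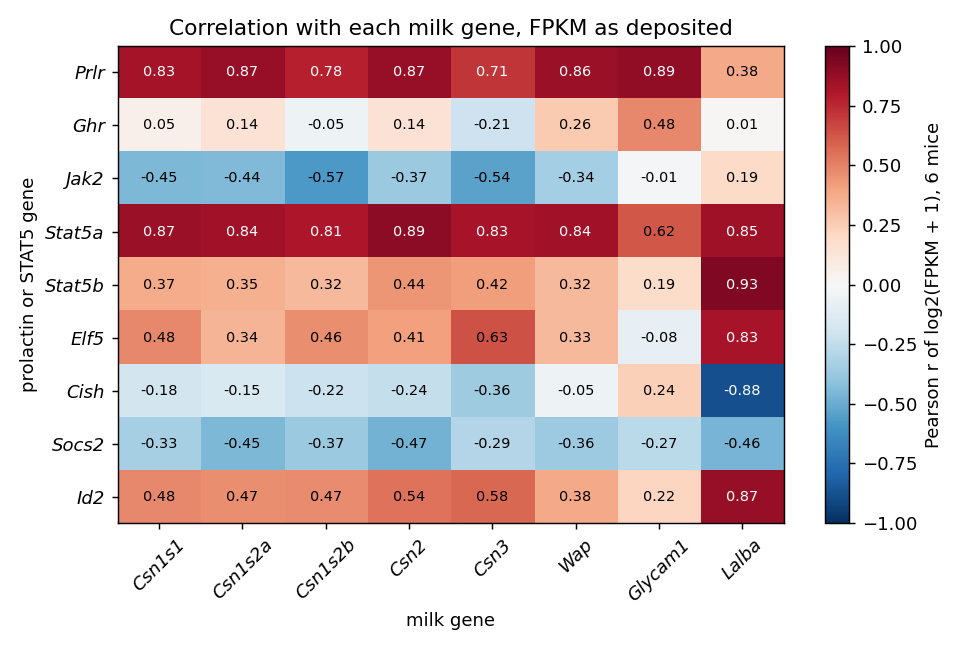
Pearson r of the 9 tested pathway genes (rows) with each of the 8 milk genes (columns) over 6 mice, from log2(FPKM + 1) as deposited; red is positive and blue negative. Prlr and Stat5a are red across the caseins and Wap, and Stat5b, Id2 and Elf5 are darkest under Lalba, where Cish is blue (-0.88).

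Within the pathway, Stat5b and Id2 had the highest r as deposited, a pair picked after its value was seen. Their r was 0.942 (exact permutation p = 0.00278) with rho = 0.943 (exact permutation p = 0.0167), adjusted p = 0.977 over all genes tested, and r was 0.938 without KO replicate 1 and WT replicate 1. It was 0.940 when libraries were scaled outside the milk genes. Stat5a had r = 0.774 with Stat5b as deposited and 0.974 after that scaling (exact permutation p = 0.0722 and 0.00139, adjusted p = 0.977 and 0.186). Both genes of a pair are divided by the same factor there, which can raise r by itself. The r of Cish with Stat5b was -0.884 as deposited (exact permutation p = 0.0222, adjusted p = 0.977) and -0.0588 after that scaling, so their opposite course depended on it.

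The genes whose log2(FPKM + 1) over the 6 libraries was most like that of 4 of these genes are given as a description. They were Slc11a2, which encodes an iron transporter, Echdc3 and Tbc1d8b for Prlr (r 0.972 to 0.994), and Hey1, a Notch target, Sort1 and Cracr2b for Stat5a (r 0.976 to 0.986). For Elf5 they were the deacetylase gene Hdac10 and the complex I subunit genes Ndufa13 and Ndufb7 (r 0.978 to 0.979), and for Cish they were Rnf24, Ltn1 and the pyrimidine synthesis gene Cad (r 0.977 to 0.986). Hey1 (0.382 to 1.56 FPKM) and Hdac10 (0.729 to 1.59 FPKM) were low in every mouse. All were picked as the highest r over 6 libraries, and no shared regulation was tested.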

How the data were processed

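The authors deposited 1 table of FPKM for 17739 gene symbols in 6 libraries. Per the submitters' processing notes, FastQC, TopHat, SAMtools and Cufflinks were used with the builds mm10 and GRCm38. Of their versions, parameters, strand setting and annotation, nothing is stated in the sources used here. Because FPKM is relative to the library total, abundant milk transcripts lower the value of other genes. Depth is unknown, and precision rests on the spread between mice. The 9767 genes reaching 1 FPKM in 3 or more libraries were tested on log2(FPKM + 1), with a pseudocount of 1, by limma 3.58.1 in R 4.3.3 (intensity trend, two-sided), with Benjamini-Hochberg adjustment and a threshold of 0.05. Correlations used exact permutations in Python 3.11.15. The tests were checked on simulated data with genes drawn independently of each other. Real genes share a library total, and that check does not cover this. Coordinates are from GENCODE on GRCm38, and copies were sought with BLAST 2.17.0 at 95% identity over 50% of a transcript.

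Mice have their own numbers in the labels and were treated as separate animals; no batch is given. The 10 genes and the lists were chosen with earlier results of these data known. The rule for names took the 10 genes, Nmi, the 8 milk genes, 4 genes with the smallest unadjusted p from each of 2 pathway lists, and 3 genes most like Prlr, Stat5a, Elf5 and Cish. Other genes were named outside this rule, as description. Among them are Tnfrsf11a, Id1, Id3, Id4, Stat3, Jak1, Socs1, Nr3c1, Ptpn2 and the single cell type markers. Tool settings and left-out libraries tried as alternatives are described at the end.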

Additional observations from a re-analysis of the deposited data

How the results depend on the processing

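No paired analysis was possible because the labels give each mouse its own number and none is shared between the genotypes. Of 117 member fold changes under alternatives, 0 became called, 93 kept their direction and 24 turned sign; of 189 correlations, 169 kept theirs and 20 turned. A p was computed for 108 of the 189, of which 0 became called. Dropping the filter or the intensity trend cannot alter a fold change, and dropping the filter cannot alter r. Those values are counted among the ones that kept their direction. The number of genes called between the genotypes was 0 under each alternative except without WT replicate 1 and KO replicate 3 together, where it was 1 (Gm7367, a processed pseudogene outside the naming rule, named after its value was seen). Gm7367 had 14.9, 12.2 and 0.797 FPKM in KO and 18.6, 2.97 and 2.97 FPKM in WT. It was called higher in KO, while the mice left out held its highest value (WT) and its lowest (KO). The causes of the changes between settings were not tested.

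With the milk share as a covariate the log2 fold change was -0.10 for Prlr, 0.14 for Socs2 and -0.35 for Id2. Without WT replicate 1 and KO replicate 3 it was -0.13, 0.024 and -0.31. For Socs2 it was 0.22 with trimmed-mean scaling and 0.14 scaled outside the milk genes. With 1 library left out, the log2 fold change ran from -0.055 to 0.23 for Prlr, from -0.082 to 0.10 for Jak2, from -0.073 to 0.16 for Stat5b, from -0.11 to 0.26 for Cish, from -0.24 to 0.18 for Socs2 and from -0.37 to 0.42 for Id2. Those of Ghr (0.04 to 0.31), Stat5a (0.27 to 0.89) and Elf5 (0.03 to 0.40) kept their sign, and the Stat5a to Stat5b difference ran from 0.31 to 0.85.

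The number of genes called for correlation with the milk share was 1115, and 0 with a pseudocount of 0.1, with no filter, with trimmed-mean scaling, scaled outside the milk genes, or with Wap, Lalba or Glycam1 as the measure; it was 3822 with Csn1s1, 3620 with Csn1s2b and 4182 with Csn3. With trimmed-mean scaling r was 0.847 for Jak2, 0.652 for Cish and 0.306 for Socs2, and scaled outside the milk genes it was 0.668, 0.458 and 0.110. With other milk genes as the measure, chosen after seeing the data, r was -0.0527 (Csn1s2b) and -0.210 (Csn3) for Ghr, 0.194 (Lalba) for Jak2, -0.0828 (Glycam1) for Elf5 and 0.238 (Glycam1) for Cish. Without the mice farthest from the median share it was -0.105 for Prlr and -0.190 for Ghr. Scaled outside the milk genes without WT replicate 1, also chosen after seeing the data, it was 0.469 for Cish and 0.584 for Socs2. With 1 library left out, r ran from -0.578 to 0.552 for Ghr, from -0.234 to 0.619 for Stat5b, from -0.427 to 0.0895 for Cish, from -0.979 to 0.320 for Socs2 and from -0.0283 to 0.603 for Id2. For those 5 genes, leaving out WT replicate 1 turned the sign.

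With 3 mice a group, the median half-width of a 95% confidence interval was 0.57 on the log2 scale without adjustment. The adjusted test called no gene as deposited, Nmi at -1.54 included (limma adjusted p = 0.372), so larger differences can also be missed.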

Other observations

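Markers of hormone-sensing luminal cells, in which Prlr and Tnfsf11 are also active, were low in every mouse. The progesterone receptor gene Pgr had 0.0266, 0.212 and 0.0713 FPKM in KO replicates 1, 2 and 3 and 0.111, 0.154 and 0.0596 FPKM in WT replicates 1, 2 and 3. The estrogen receptor gene Esr1 had 1.09, 0.644 and 2.18 FPKM in KO and 0.704, 0.834 and 1.22 FPKM in WT. Their list of 6 genes summed to between 3.91 and 4.79 FPKM in KO and between 3.09 and 7.59 FPKM in WT.

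Other JAK and STAT genes were present beside Jak2 and the STAT5 genes. Stat3, whose protein drives involution after weaning, had 95.6, 92.4 and 66.4 FPKM in KO and 66.1, 89.3 and 91.4 FPKM in WT. Jak1 had 26.9, 27.1 and 20.5 FPKM in KO and 25.1, 29.6 and 21.4 FPKM in WT. Socs1, another inhibitor of prolactin signalling, stayed between 0.0786 and 0.254 FPKM in KO and between 0.0766 and 0.440 FPKM in WT. Nr3c1, which encodes the glucocorticoid receptor, had 10.5, 12.1 and 14.3 FPKM in KO and 8.73, 11.6 and 11.0 FPKM in WT.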
